A study of Mus musculus with 8 samples.

Results

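The genes described here are 36 regulators of pre-mRNA splicing: 12 SR and Tra2 proteins, 15 hnRNP proteins, 3 polypyrimidine tract-binding proteins (Ptbp1, Ptbp2, Ptbp3), 4 genes of the CELF, MBNL and RBFOX families (Celf1, Mbnl1, Mbnl2, Rbfox2), and Esrp1 and Esrp2. They were chosen as named families, with earlier results of these data known, and matched by symbol through the RefSeq accession that the array gives for each probe. Probes with such an accession were found for 35 of the 36, as 63 probes, and all 63 passed the filter on dim probes, so that 35 of the 17737 genes tested were members. Srsf11 was not analysed here.

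SR proteins bind short exonic sequences through an RNA recognition motif and recruit the spliceosome through arginine- and serine-rich tails, so they mostly favour inclusion of the exon they bind. hnRNP and PTB proteins coat the nascent transcript and often act against neighbouring splice sites, so the balance between both classes sets many exon choices. CELF, MBNL, RBFOX and ESRP proteins are regulators of tissue programmes: CELF and MBNL proteins act in opposite ways on many exons, and ESRP proteins maintain the epithelial splicing programme, including that of the epidermis.

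Total RNA of whole skin from mice labelled male was hybridised to 8 single-colour Agilent arrays, 4 of skin labelled Control and 4 of skin labelled DTG. The labels do not spell out DTG, the series title speaks of Musashi1 overexpression, and strain, age, the promoter of a transgene, any inducing treatment and pooling were not given in the sources used here. Each sample has a numbered title of its own, but the labels do not say that the numbers stand for animals, so the tests set differences against the spread of these arrays, some of which may be technical. Replicates are numbered 1 to 4 in deposit order within a group, and the numbers pair no samples.

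Each level below is the log2 of a probe's processed signal minus the 75th percentile of its array, so a level of 0 lies at that percentile. Changes are DTG minus Control. Msi1 itself read 6.81 higher (adjusted p = 0.00303, limma) on 1 of its probes, whose DTG 1 spot was left out as an outlier, and changed by -0.03 on the other. The arrays differed in more than the group label: all Control arrays lay in row 1 and all DTG arrays in row 2 of the slide, so row and group cannot be told apart, and 82.7% ± 2.64 (SD, n = 4) of spots were well above background in Control against 69.8% ± 1.23 (SD, n = 4) in DTG (p = 0.0286 by an exact two-sided permutation test, the smallest that 4 against 4 allows; 0.0381 adjusted over 4 array measures). By Xist and Eif2s3y, 5 arrays read as female and 3 as male against a male label throughout. Over all genes the median change was -0.15, but 0.32 when arrays were scaled on their spike-in spots. That scaling added 0.47 to the change of each member, so a fall smaller than this turns into a rise there: of the 18 members below 0, 17 lay above 0 on the spike-in scale, and Mbnl1 alone stayed below.

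In DTG skin 5 splicing regulators rose and 3 fell, while 27 did not pass the test. Celf1, Hnrnpa2b1, Ptbp3, Esrp1 and Srsf10 rose, by between 1.38-fold and 2.66-fold, and Mbnl1, Hnrnpa3 and Hnrnpr fell, by between 1.22-fold and 1.41-fold. The 8 calls made up 22.9% of the members, where 32.4% of all genes tested were called at an adjusted p under 0.05 (limma, Benjamini-Hochberg over 17737 genes); 14.3% of members and 11.1% of all genes rose, and 8.57% of members and 21.3% of all genes fell. The median change of the members lay 0.15 above the median of all genes. The split depended on the scaling, with 6 higher and 1 lower after quantile scaling, 5 and 1 with no scaling, and 17 higher and 0 lower on the spike-in scale (25 and 0 at an unadjusted p under 0.05, limma). Within the 5 arrays of high Xist 5 members rose and 0 fell (2 fell at an unadjusted p under 0.05), and within the 3 of low Xist, with a lone DTG array, none passed (4 higher and 3 lower unadjusted; limma). The count of falls was 1 without Control 3 and 1 without DTG 2.

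**Figure D1:**
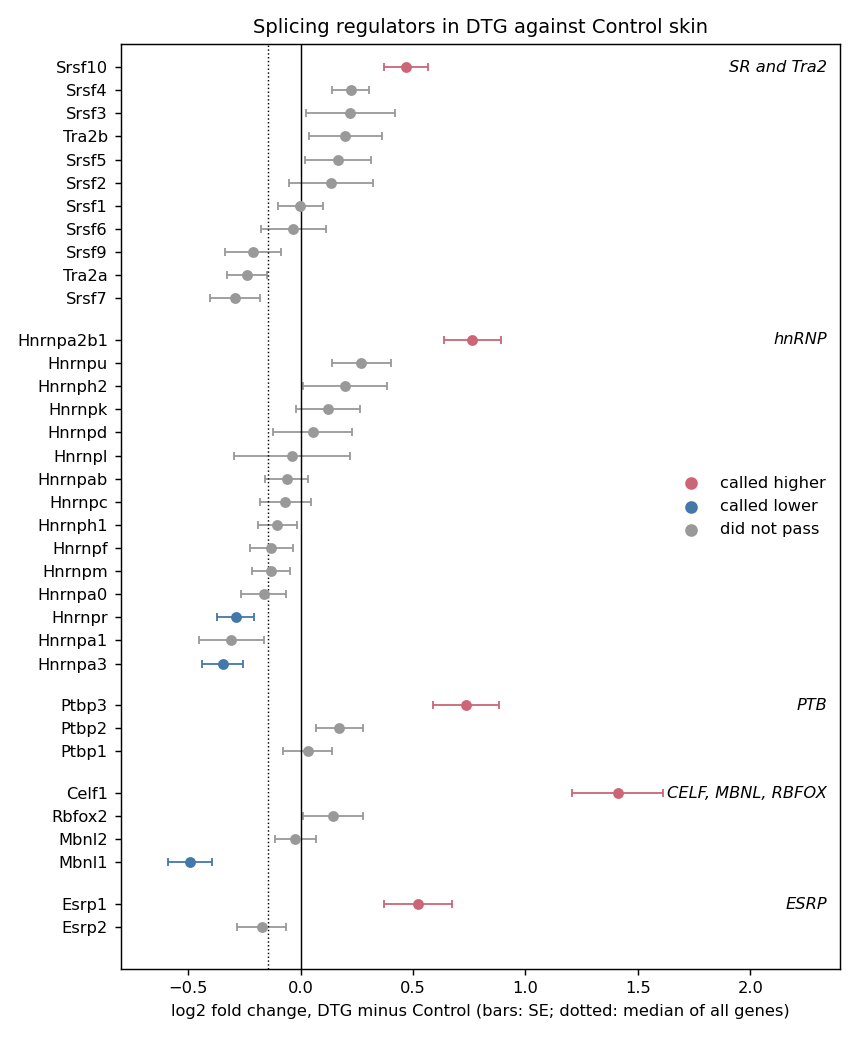
Change of each of the 35 tested members in DTG against Control skin, as log2 fold change on the x axis with bars for its SE (4 arrays per group), grouped by family; red and blue points passed the test, grey ones did not. Most points lie within 0.31 of 0 and to the right of the dotted line at the median of all genes, -0.15; Celf1 stands farthest out at 1.41 and Mbnl1 lowest at -0.49, and the falls of Hnrnpa3 and Hnrnpr turn to 0.12 and 0.18 on the spike-in scale.

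Celf1 gave the largest change. Celf1 binds GU-rich elements, both at regulated exons and in transcripts that it marks for decay. On the Control arrays it read -0.69, -1.21, -1.32 and -1.13, and on the DTG arrays -0.20, 0.48, 0.54 and 0.47. The groups did not overlap, with DTG 1 the lowest DTG array and Control 1 the highest Control array. The difference was 1.41 (SE 0.20), a 2.66-fold rise, with an adjusted p of 0.00171 (limma), and it was 1.59 without DTG 1 and 1.88 on the spike-in scale. It ranked 315 among the 1977 genes that rose, and 1 probe alone reads it.

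Mbnl1, which binds YGCY motifs and acts against CELF proteins on many shared exons, had the largest fall. Mbnl1 read 3.37, 3.27, 3.35 and 3.14 in Control and 2.87, 2.60, 2.88 and 2.80 in DTG skin. Every DTG array lay below every Control array, on the only probe found for Mbnl1. The change was -0.49 (SE 0.10, n = 4 per group; 1.41-fold lower, adjusted p = 0.00767, limma), but only -0.02 on the spike-in scale, where it did not pass. Within the 5 arrays of high Xist it was -0.35 and within the 3 of low Xist -0.75, and neither passed (adjusted p = 0.0836 and 0.0935, limma), so the fall of Mbnl1 was a called change only when both sets of arrays were fitted together.

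The start regions of these opposed regulators, and of Hnrnpa2b1, the hnRNP gene with the largest rise, are given below. The first start of Mbnl1 differs from that of Celf1 in base composition, and its second start is close to it. Each sequence below is the 250 bases before a RefSeq start on its coding strand (mouse build GRCm38.p6, from RefSeq); capitals mark GC boxes, spelled GGGCGG. They also mark the box named for its letters CCAAT. E-boxes, spelled CACGTG, are capitals too. So are TATA boxes, spelled TATAAA, and each motif was sought on both strands. Celf1 lies at chr2:90940147-90940396 on the plus strand, the starts of Mbnl1 at chr3:60472580-60472829 and chr3:60500929-60501178 on the plus strand, and the outer start of Hnrnpa2b1 at chr6:51469895-51470144 on the minus strand.
Celf1: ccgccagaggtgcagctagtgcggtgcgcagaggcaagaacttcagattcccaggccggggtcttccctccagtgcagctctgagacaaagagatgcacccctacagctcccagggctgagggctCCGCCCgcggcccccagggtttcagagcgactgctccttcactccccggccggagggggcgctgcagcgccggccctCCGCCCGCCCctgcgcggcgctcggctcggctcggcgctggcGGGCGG
Mbnl1, first start: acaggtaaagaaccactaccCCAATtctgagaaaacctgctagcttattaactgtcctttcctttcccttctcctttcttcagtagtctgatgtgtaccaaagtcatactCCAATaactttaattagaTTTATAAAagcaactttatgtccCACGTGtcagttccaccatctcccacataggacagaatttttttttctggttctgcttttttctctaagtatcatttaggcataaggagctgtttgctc
Mbnl1, second start: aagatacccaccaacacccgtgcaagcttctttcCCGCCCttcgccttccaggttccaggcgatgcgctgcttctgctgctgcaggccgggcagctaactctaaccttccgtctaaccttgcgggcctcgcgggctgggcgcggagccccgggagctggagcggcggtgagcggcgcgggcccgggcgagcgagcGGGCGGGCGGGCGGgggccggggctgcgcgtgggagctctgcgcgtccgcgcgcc
Hnrnpa2b1: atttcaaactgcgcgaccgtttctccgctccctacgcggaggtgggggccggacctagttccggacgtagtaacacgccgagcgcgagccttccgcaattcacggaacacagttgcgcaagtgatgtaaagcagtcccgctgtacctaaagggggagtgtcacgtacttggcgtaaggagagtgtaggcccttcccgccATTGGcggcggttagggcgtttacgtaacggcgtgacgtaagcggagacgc

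Celf1 held 4 GC boxes and no CCAAT box in a window of 72.4% G and C. The second Mbnl1 window was alike in that respect, with 4 GC boxes, some of them overlapping, and 73.6% G and C. The first Mbnl1 window, at 38.0% G and C, held no GC box but 2 CCAAT boxes, 1 E-box and a TATA box that reads on both strands. Hnrnpa2b1 held 1 CCAAT box, on the opposite strand, and no GC box. The probe of Mbnl1 was not assigned to either start. A match is a run of letters and no measured binding site.

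The table of promoters held 45 windows of 32 of the 36 genes, not those of Ptbp3, Rbfox2, Esrp1 or Esrp2. GC boxes stood in 35 of the 45 (77.8%), against 32.7% of all 32851 windows of the same length. CCAAT boxes stood in 51.1% against 33.8%, E-boxes in 11.1% against 6.02% and TATA boxes in 8.89% against 12.4%. The median G and C content was 65.2% in the members' windows and 52.4% in all. GC boxes were found both in genes that rose (Celf1, Srsf10) and in genes that fell (Mbnl1, Hnrnpa3, Hnrnpr).

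Mbnl2, the close relative of Mbnl1, ranged from 2.03 to 2.32 in Control and from 2.11 to 2.18 in DTG skin. Its change was -0.02 (SE 0.09, adjusted p = 0.859, limma), with the groups overlapping. The other probes of Mbnl2 gave 0.16 and -0.10, also with overlapping groups, and neither was called. The ratio of Mbnl1 to Mbnl2 on the same array, which no shift of a whole array can move, fell by 0.47 in DTG (SE 0.05, n = 4 each; exact two-sided permutation p = 0.0286, 0.08 adjusted over 14 pairs). The groups of ratios did not overlap.

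Rbfox2, which binds UGCAUG and favours or blocks an exon according to the side on which it binds, gave different answers on its probes. The brighter probe, listed under NM_175387, read 2.50, 2.77, 2.75 and 2.70 in Control and 2.53, 2.81, 3.12 and 2.85 in DTG skin. Those groups overlapped, and the change was 0.14 (SE 0.13, adjusted p = 0.428, limma). The other probe, listed under NM_053104, read 0.15, 0.16, 0.21 and 0.03 in Control and 1.22, 1.42, 1.37 and 1.18 in DTG.

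Its 4 DTG arrays thus lay close together and well clear of the 4 Control arrays. On this probe Rbfox2 was 1.16 higher (SE 0.10, adjusted p = 0.000179 in the limma fit over 23223 probes), and 1.63 higher on the spike-in scale. It kept the call in 22 of 23 other settings and lost it within the 3 arrays of low Xist, at 1.24. The within-array difference of the 2 probes moved by -1.01 (exact two-sided permutation p = 0.0286, 0.193 adjusted over 27 probe pairs). Averaging both Rbfox2 probes gave 0.65 (adjusted p = 0.00274, limma), a call that the brighter probe does not make. The different accessions name different RefSeq transcripts, and which transcripts each probe reads was not tested.

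**Figure D2:**
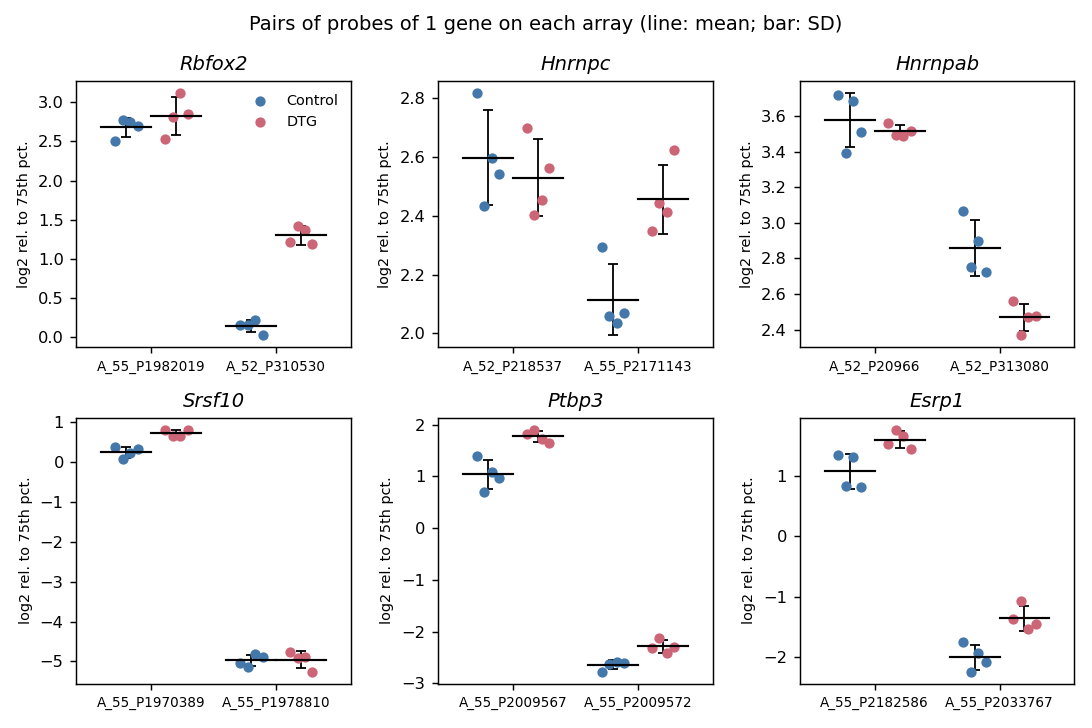
Level of 2 probes of the same gene on each array, for 6 members; the y axis gives log2 levels as defined in the text; points are arrays, lines group means and bars SD (n = 4). The heights of different probes are not comparable. In Rbfox2, Hnrnpc, Hnrnpab and Srsf10, 1 probe separated the groups while the other overlapped (the Hnrnpab probe that fell reads 0.08 higher on the spike-in scale), whereas both probes of Ptbp3 and of Esrp1 separated them.

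Of the 11 SR and Tra2 genes tested, Srsf10 rose and 10 did not pass the test. Among those 10, Srsf7 and Tra2a were lower and Srsf4 was higher at an unadjusted p under 0.05 (limma). The median change of the 11 genes was 0.14, where all genes had -0.15, and it was 0.60 on the spike-in scale. Srsf10 differs from other SR proteins in that it represses splicing when dephosphorylated, as in heat shock and mitosis. It read 0.39, 0.07, 0.23 and 0.32 in Control and 0.80, 0.64, 0.65 and 0.80 in DTG skin. All DTG arrays exceeded all Control arrays.

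The rise of Srsf10 was 0.47 (SE 0.10, n = 4 per group; 1.38-fold, adjusted p = 0.00907, limma). Its second probe gave 0.36 with overlapping groups (adjusted p = 0.125 in the probe fit), and a dim probe, listed under NM_001080387, gave 0.01. The first and the dim probe differed in their change by 0.46 (exact two-sided permutation p = 0.0286, 0.193 adjusted over 27 probe pairs). With the 3 probes averaged Srsf10 was 0.28 higher and did not pass.

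Srsf4 and Tra2a also separated the groups, without passing the test. Srsf4, a constitutive SR protein, averaged 2.02 ± 0.03 (SD, n = 4) in Control and 2.25 ± 0.09 in DTG skin, a difference of 0.22 (SE 0.08, adjusted p = 0.0674, limma). Srsf4 passed in 5 of 23 alternatives, with adjusted p (limma) of 0.0175 after quantile scaling, 0.0387 in the authors' value table, 0.0446 with normexp, 0.0389 with an intensity trend and 0.00503 on the spike-in scale. Tra2a, which with Tra2b binds GAA-rich exonic enhancers, averaged 3.20 ± 0.11 in Control and 2.97 ± 0.04 in DTG, a difference of -0.24 (SE 0.09, adjusted p = 0.0681, limma) that becomes 0.23 on the spike-in scale; it passed without Control 2 (adjusted p = 0.0469, limma) and with an intensity trend (0.0343). Of the 35 members 10 had groups that did not overlap, 6 higher and 4 lower, where 34.5% of all genes did, 11.4% higher and 23.1% lower. Tra2b gave 0.20 with overlapping groups, and the ratio of Tra2a to Tra2b fell by 0.44 in DTG (SE 0.20; exact two-sided permutation p = 0.0286, 0.08 adjusted), a separation lost after quantile scaling (-0.37) and with normexp background correction (-0.47).

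The remaining SR genes overlapped between the groups. Srsf1, which binds purine-rich enhancers and shuttles to the cytoplasm, ranged from 2.69 to 2.92 in Control and from 2.62 to 2.91 in DTG, and its change was 0.00 (SE 0.10). Its other probes gave -0.32 and -0.21, with overlapping groups, and the average of its 3 probes -0.18; none passed. Srsf7 gave -0.29 (SE 0.11, adjusted p = 0.0739, limma), or 0.18 on the spike-in scale. It passed with an intensity trend (adjusted p = 0.0466, limma) and with median scaling (adjusted p = 0.048, limma), and its dim second probe gave 0.07. Srsf9 gave -0.21, or 0.26 on the spike-in scale. Srsf2 gave 0.14, and 0.44 on its second probe (adjusted p = 0.0739 in the probe fit). Srsf3 and Srsf5 gave 0.22 and 0.17, and Srsf6 gave -0.03 and, on its second probe, 0.14. Srsf3, the smallest SR protein and a partner of Srsf7 in mRNA export, spread widely within DTG skin, from 1.86 on DTG 3 to 2.68 on DTG 1, and its other probes gave 0.07 and 0.13. The ratio of Srsf3 to Srsf7 was 0.51 higher in DTG (exact two-sided permutation p = 0.0571), with the groups overlapping.

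**Figure D3:**
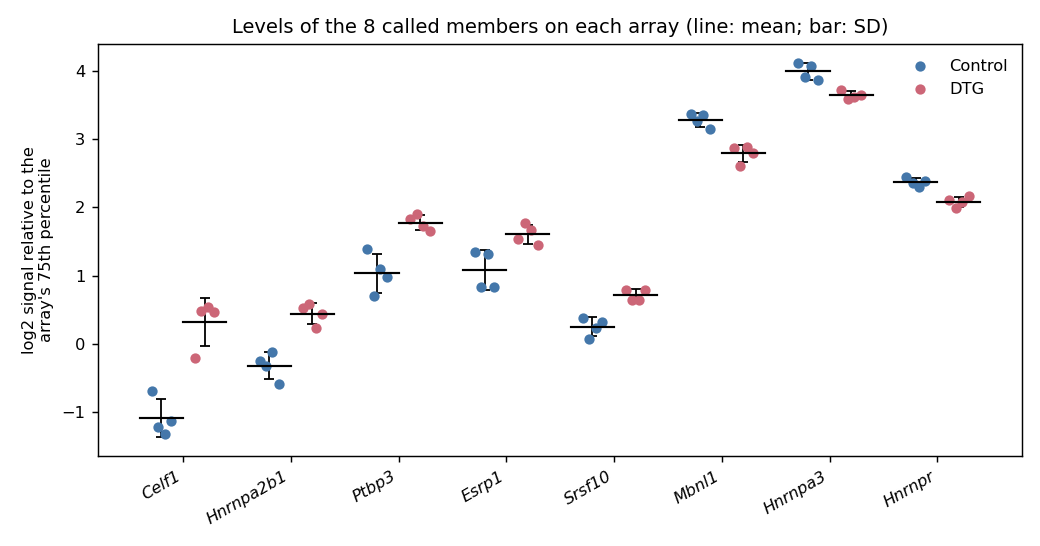
Levels of the 8 members that passed the test on each array; the y axis gives log2 levels as defined in the text; points are arrays, lines group means and bars SD (n = 4). In each gene all DTG points lie on the same side of all Control points, and DTG 1 of Celf1, at -0.20, lies below the other DTG arrays of that gene; the falls of Hnrnpa3 and Hnrnpr reverse to 0.12 and 0.18 on the spike-in scale and that of Mbnl1 shrinks to -0.02.

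Of the 15 hnRNP genes, Hnrnpa2b1 rose, Hnrnpa3 and Hnrnpr fell, and 12 did not pass; their median change was -0.07, and 0.40 on the spike-in scale. Hnrnpa2b1, which binds UAG-containing sites and reads m6A-marked transcripts, read -0.24, -0.32, -0.12 and -0.59 in Control and 0.53, 0.59, 0.23 and 0.44 in DTG skin. No DTG array reached down to the Control range. The rise was 0.76 (SE 0.13, n = 4 per group; 1.70-fold, adjusted p = 0.0034, limma).

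A brighter Hnrnpa2b1 probe had its spot left out as an outlier on 6 of 8 arrays and so was not used for the gene. With those spots kept it read 2.74, 2.59, 2.68 and 2.23 in Control and 3.20, 3.17, 3.13 and 2.92 in DTG. These groups did not overlap either, and the change was 0.55 (SE 0.13, adjusted p = 0.0157, limma). Both Hnrnpa2b1 probes therefore gave a rise.

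Hnrnpa1, the abundant A-type protein that opposes Srsf1 at many exons, ranged from 1.51 to 2.10 in Control and from 1.28 to 1.66 in DTG skin, with a change of -0.31 (SE 0.15, adjusted p = 0.136, limma), or 0.16 on the spike-in scale. The ratio of Hnrnpa1 to Hnrnpa2b1 on the same array fell from 2.11 ± 0.24 to 1.04 ± 0.10 (SD, n = 4 each), a difference of -1.07 (exact two-sided permutation p = 0.0286, 0.08 adjusted over 14 pairs). It was the largest of the 14 ratio changes, and the groups of ratios lay apart. The level and size of this ratio depend on the dimmer Hnrnpa2b1 probe, which stood for the gene. The brighter probe, with its outlier spots kept, averaged 2.56 in Control and 3.11 in DTG skin, and a ratio to it was not tested. Hnrnpa1 and Hnrnpa3 kept closer to each other, their ratio differing by 0.04 between the groups (SE 0.10, exact two-sided permutation p = 0.657).

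Hnrnpa3, an A-type protein also known for cytoplasmic RNA transport, read 4.12, 3.91, 4.06 and 3.87 in Control and 3.71, 3.59, 3.62 and 3.65 in DTG skin. The DTG arrays all lay below the Control arrays. The change was -0.35 (SE 0.09, adjusted p = 0.0207, limma), became 0.12 on the spike-in scale, and did not pass without Control 3 (adjusted p = 0.0617, limma) or without DTG 2 (0.0556), after quantile scaling (-0.14) or with probes averaged (-0.15). With the slide column as a block, which matches each Control array with the DTG array of its column, Hnrnpa3 had an adjusted p of 0.05 (limma), not under the threshold. The 7 Hnrnpa3 probes gave from -0.35 to 0.05. Hnrnpa1 and Hnrnpa3 have many processed copies in the mouse genome, and whether a probe also reads a copy was not tested.

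Hnrnpr, an RNA-binding protein abundant in neurons and close to Syncrip, read 2.44, 2.36, 2.30 and 2.39 in Control and 2.11, 1.98, 2.08 and 2.16 in DTG skin. All DTG arrays lay below all Control arrays, on the only probe found for Hnrnpr. The change was -0.29 (SE 0.08, adjusted p = 0.0284, limma), and 0.18 on the spike-in scale. Hnrnpr lost the call when Control 1, 2, 3 or 4 or DTG 1, 2 or 3 was left out, with adjusted p from 0.0518 to 0.0773 (limma), and also with the slide column as a block (0.0705).

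The other hnRNP genes did not pass the test on the probes that stood for them. Hnrnpc, the U-tract binding protein that measures RNA length, gave -0.07 (SE 0.11), and Hnrnpm, Hnrnph1, Hnrnpf and Hnrnpa0 gave -0.13, -0.10, -0.13 and -0.16. These directions were not stable to scaling. On the spike-in scale the 5 genes gave from 0.30 to 0.40, with Hnrnpc and Hnrnph1 called higher (adjusted p = 0.0427 and 0.047, limma). The second probes of Hnrnpa0 and Hnrnpf gave 0.39 and 0.17 (neither called). That of Hnrnpa0 is dim, averaging -3.50 in Control, with an SE of 0.34. That of Hnrnpf lacked a DTG spot left out as an outlier, and gave 0.02 with the spot kept. Hnrnpu, a nuclear scaffold protein, gave 0.27 (SE 0.13, adjusted p = 0.149, limma), and Hnrnpk, which binds C-rich sites, 0.12. Hnrnph2, Hnrnpd (Auf1, a regulator of AU-rich transcripts) and Hnrnpl gave 0.20, 0.05 and -0.04; Hnrnpl spread from 0.12 to 1.30 among the Control arrays, the widest range of any member in that group.

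Hnrnpc and Hnrnpab each had a second probe that passed the probe-level test. The second Hnrnpc probe read 2.29, 2.06, 2.04 and 2.07 in Control and 2.35, 2.44, 2.41 and 2.62 in DTG skin, with DTG above Control throughout but Control 1 close to DTG 1. It was 0.34 higher (SE 0.10, adjusted p = 0.0355 in the limma probe fit) and did not pass without Control 2, 3 or 4 or without DTG 2, 3 or 4 (adjusted p from 0.0574 to 0.0947, limma). The second probe of Hnrnpab, a CArG-box and AU-rich RNA-binding protein, read 3.07, 2.75, 2.90 and 2.72 in Control and 2.56, 2.37, 2.47 and 2.47 in DTG. Its change was -0.39 (SE 0.10, adjusted p = 0.0235 in the same fit), not past the threshold without Control 3, DTG 2 or DTG 4 (adjusted p from 0.0534 to 0.0641, limma), while the first Hnrnpab probe gave -0.06.

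At the level of probes, 9 of the 62 tested rose and 4 fell (the brighter Hnrnpa2b1 probe was not tested with its outlier spots left out), where 31.3% of all probes tested were called, 11.6% as higher and 19.7% as lower; on the spike-in scale 26 rose and 0 fell (40 and 0 at an unadjusted p under 0.05, limma). Within-array differences between probes of 1 gene separated the groups in 4 of 27 pairs, those of Rbfox2, Srsf10, Hnrnpab and Hnrnpc. Over all genes with such probes 21.3% separated, so a disagreement between probes was no more common among the splicing regulators. The count of probes that fell was 1 without Control 3, DTG 2 or DTG 4, and 2 without DTG 3; the count that rose was 6 without Control 2 or DTG 2.

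Among the PTB proteins, which bind CU-rich tracts and repress exons, Ptbp3 rose and the other 2 did not pass. Ptbp3, the paralogue also known as Rod1, read 1.39, 0.70, 1.09 and 0.97 in Control and 1.82, 1.90, 1.72 and 1.65 in DTG skin. The highest Control array, Control 1, stayed below the lowest DTG array. The rise was 0.74 (SE 0.15, n = 4 per group; 1.67-fold, adjusted p = 0.00721, limma). A dim second probe rose by 0.36 (SE 0.10, adjusted p = 0.0257 in the probe fit), not past the threshold without Control 1, 2 or 3 or without DTG 2 or 4 (adjusted p from 0.0508 to 0.0671, limma).

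Ptbp1, the widely expressed repressor, ranged from 2.91 to 3.33 in Control and from 3.02 to 3.24 in DTG skin, with a change of 0.03 (SE 0.11, adjusted p = 0.846, limma). Its dim second probe gave 0.47 with overlapping groups (adjusted p = 0.0703 in the probe fit). Ptbp2, the neuronal paralogue, gave 0.17 (SE 0.10). The ratio of Ptbp1 to Ptbp3 dropped by 0.71 in DTG, from 2.10 ± 0.13 to 1.39 ± 0.20 (SD, n = 4 each; exact two-sided permutation p = 0.0286, 0.08 adjusted over 14 pairs), with no overlap. With probes averaged the change was -0.30.

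Esrp1 rose, and its paralogue Esrp2 did not pass the test. Esrp1, which binds GU-rich sites and is restricted to epithelial cells, read 1.35, 0.84, 1.32 and 0.83 in Control and 1.54, 1.77, 1.66 and 1.45 in DTG skin. The gap between Control 1 and DTG 4 was small, and the Control arrays fell into a higher and a lower pair. The lower Control pair, Control 2 and 4, are the Control arrays of high Xist.

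The rise of Esrp1 was 0.52 (SE 0.15, n = 4 per group; 1.44-fold, adjusted p = 0.0313, limma), with 0.72 within the arrays of high Xist and 0.44 within those of low Xist (adjusted p = 0.0219 and 0.189, limma). It did not pass without Control 2, Control 4, DTG 1, DTG 2 or DTG 3, with adjusted p from 0.0535 to 0.081 (limma), or with the slide column as a block (0.0575). The second Esrp1 probe gave 0.64 (SE 0.14, adjusted p = 0.0116 in the probe fit) with groups that did not overlap. It passed without each array in turn, with adjusted p from 0.0101 to 0.0299 (limma).

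Esrp2, the paralogue that shares most Esrp1 targets, read from -0.31 to -0.02 in Control and from -0.56 to -0.21 in DTG skin, a change of -0.17 (SE 0.11, adjusted p = 0.249, limma) that becomes 0.30 on the spike-in scale. The ratio of Esrp1 to Esrp2 rose from 1.29 ± 0.28 to 1.98 ± 0.15 (SD, n = 4 each), a difference of 0.69 (exact two-sided permutation p = 0.0286, 0.08 adjusted over 14 pairs). All DTG ratios exceeded all Control ratios.

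**Figure D4:**
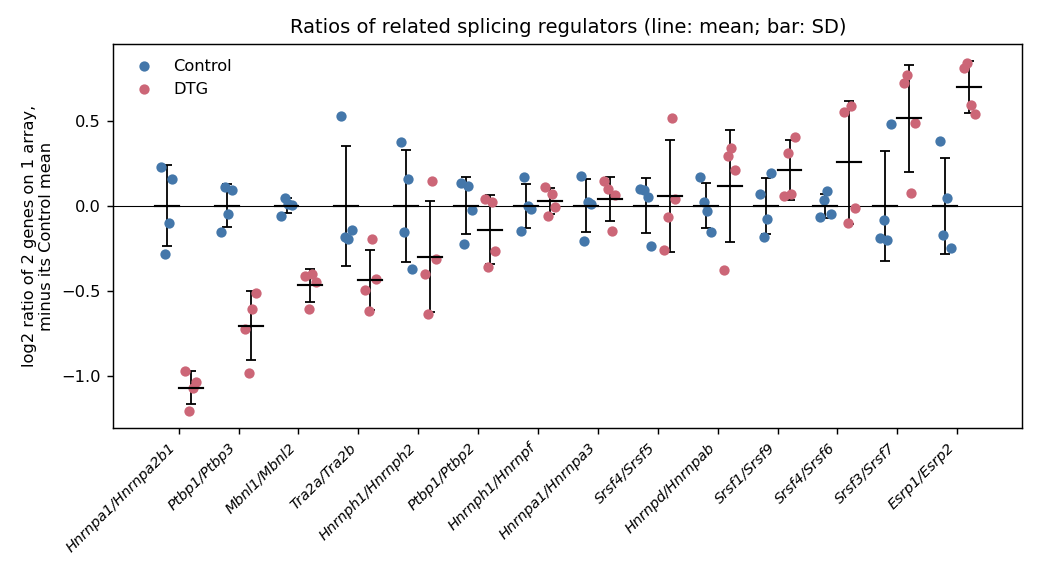
Within-array log2 ratio of 14 pairs of related members, shown as the difference from the mean ratio of the Control arrays; points are arrays, lines group means and bars SD (n = 4). Hnrnpa1/Hnrnpa2b1 shows the largest drop, -1.07, and Esrp1/Esrp2 the largest increase, 0.69. The groups do not overlap in 5 pairs, and no share over other pairs of genes is given here for comparison. The ratios do not move when a whole array is rescaled.

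The 5 pairs that separated the groups were Hnrnpa1/Hnrnpa2b1, Ptbp1/Ptbp3, Mbnl1/Mbnl2, Tra2a/Tra2b and Esrp1/Esrp2, and none passed after adjustment over the 14, which cannot go below 0.08 with 5 pairs at the smallest exact p of 0.0286. In 9 pairs the groups overlapped. No share over other pairs of genes is given here to set beside the 5 of 14. Of all single genes, 34.5% had groups that did not overlap. Srsf1/Srsf9, Srsf4/Srsf6 and Hnrnpd/Hnrnpab were 0.21, 0.26 and 0.11 higher, and Hnrnph1/Hnrnph2 and Ptbp1/Ptbp2 changed by -0.30 and -0.14. Hnrnph1/Hnrnpf, Hnrnpa1/Hnrnpa3 and Srsf4/Srsf5 changed by 0.03, 0.04 and 0.06, and Srsf3/Srsf7 as given above.

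The brightness of the probes moved with these results. When all probes were divided into 4 equal bins by mean level, 24 of the 35 members came into the brightest bin, where 5.03% of all probes rose and 20.3% fell. The 24 members there held the 3 falls and no rise (1, Srsf4, was higher at an unadjusted p under 0.05, limma), though 17 of them were higher unadjusted on the spike-in scale. The 5 rises came from members in the 2 middle bins, which held 11 members and where 16.1% and 13.5% of all probes rose. The part of brightness in the rises and falls was not tested.

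Of 100 other splicing genes tested, 10 rose and 18 fell, where 11.1% of all genes rose and 21.3% fell. On the spike-in scale 45 rose and 0 fell (59 and 2 at an unadjusted p under 0.05, limma). With no scaling 13 rose and 3 fell, and after quantile scaling 16 rose and 14 fell. The falls numbered 7 without Control 3 or DTG 2, 9 without Control 1 and 11 without Control 2 or DTG 4. Among U1 snRNP genes, Luc7l, which helps choose 5' splice sites, rose by 1.97 (adjusted p = 5.82e-05, limma). Snrnp70 and Prpf39 fell by 0.31 and 0.43 but were 0.16 and 0.04 higher on the spike-in scale. Among genes that recognise the 3' splice site, Sf3b1, the U2 subunit that clamps the branch site, fell by 0.76 (adjusted p = 0.00266, limma). Sf1 fell by 0.38 but was 0.08 higher on the spike-in scale, and Snrpb2 rose by 0.40.

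The Sm core had 2 falls among 7 genes, Snrpf (-0.46) and Snrpg (-0.35), with Snrpd2 at -0.32 not passing (0.01, 0.12 and 0.15 on the spike-in scale). The tri-snRNP had 2 rises among 11, Prpf3 (0.41) and the helicase Snrnp200 (0.34), with Eftud2 at 0.30 not passing. Both lists are short, and among all genes 11.1% rose and 21.3% fell. Of the 9 kinases that phosphorylate SR proteins, Clk2 fell by 0.37 (adjusted p = 0.0404, limma), while Clk4 (0.27) and Srpk1 (-0.36) did not pass; Clk2 and Srpk1 gave 0.10 and 0.11 on the spike-in scale.

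Among 11 SR-related genes, Rnps1, a component of the exon junction complex, rose by 0.96 (adjusted p = 0.00589, limma). Son and Thrap3 fell by 0.27 and 0.28 but were 0.20 and 0.18 higher on the spike-in scale. Among 20 hnRNP-like genes, Syncrip, the relative of Hnrnpr, fell by 0.88 (adjusted p = 0.00135, limma). Nono fell by 0.40 but was 0.07 higher on the spike-in scale. Fubp1 rose by 1.83 although DTG 3 lay within the Control range. Among 20 tissue regulators, Mbnl3 fell by 1.09. Nova1 fell by 0.38 but was 0.09 higher on the spike-in scale. Tia1, which binds U-rich tracts after weak 5' splice sites, rose by 0.67 (adjusted p = 0.00235, limma).

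In whole tissue, fewer cells of a type and less RNA per cell cannot be told apart. The basal keratin gene Krt5, a defining marker of skin, averaged 4.52 in Control and 3.94 in DTG skin. Its change was -0.59 (adjusted p = 0.00904, limma), and -0.12 on the spike-in scale. Markers of keratinocytes, the epithelial cells of skin, were 2 higher and 6 lower of 12. Their summed linear signal, in multiples of the 75th percentile, ranged from 170 to 221 in Control and from 136 to 163 in DTG skin. A spot left out as an outlier added nothing to such a sum. The low end of 136 was DTG 2, where Krt15 had no value, so it overstates the difference. Fibroblast markers were 4 lower of 9 (153 to 206 against 133 to 153) and skeletal muscle markers 2 lower of 8 (157 to 180 against 133 to 145). Adipocyte markers were 5 lower of 7 (57.1 to 84.9 against 59.4 to 63.2). The low end of 57.1 was Control 4, where Adipoq had no value, so the overlap of the adipocyte ranges cannot be read. Schwann cell markers were 5 lower of 7 (16.1 to 19.4 against 13.3 to 15.2). Markers of dividing cells were 7 lower of 8 (11.2 to 20.3 against 10.3 to 12). The low end of 11.2 was Control 2, where Mki67 had no value, and Cdk1 had values on only 2 DTG arrays. The overlap of these ranges therefore cannot be read. Immune markers were 1 lower of 7 (46.8 to 60 against 39.7 to 53.5), and endothelial markers 1 higher of 6 (2.77 to 4.25 against 3.12 to 4.51). Among all genes 21.3% fell. On the spike-in scale the median change was 0.15 for keratinocyte, 0.13 for fibroblast, 0.24 for skeletal muscle and 0.15 for adipocyte markers, where it was -0.32, -0.34, -0.23 and -0.32 before, and it stayed below 0 for Schwann cell (-0.13) and dividing cell (-0.43) markers. The part of cell composition in the changes of the splicing regulators was not tested.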

How the data were processed

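Each array's deposited scanner table gives spot brightness as a linear intensity, which the authors obtained with Agilent Feature Extraction (10.7 per the submitters' processing notes; the file headers give 11.5.1.1). Background was already subtracted in the processed signal, per the file headers. The flags for spots above background or non-uniform are other columns of the deposited tables. The authors' deposited value table was used as an alternative; its values are linear, and 99.8% lie within 0.001, as a fraction, of the mean processed signal.

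Outlier spots were left out (0.55% of probe values), spots of a probe were averaged, and log2 values were centred on each array's 75th percentile. Probes were named by RefSeq accession (26762 of 55681). A probe entered the tests when 3 or more of the 4 arrays in either group had it well above background. The brightest kept probe with values on at least 2 arrays per group stood for a gene; that minimum was added after values were seen, because of Hnrnpa2b1. Groups were compared with limma 3.58.1 (lmFit, eBayes; R 4.3.3) over 17737 genes, and separately over 23223 probes, with Benjamini-Hochberg adjustment and a threshold of 0.05. Ratios were tested by exact permutation over 70 splits of the arrays. On data simulated for this comparison (17737 genes), 68% of genes changed by 1 and 14% and 18% of genes changed by -0.5 and 0.5 (log2) were called. In those data few genes changed, so the adjustment was stricter than in the real fit, and the shares do not apply to it directly. Precision rests on the number of arrays, with a median SE of 0.138 over genes.

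The members and all gene lists were chosen with earlier results of these data known. Named genes are all 36 members and, of each list of other splicing genes, the 3 with the smallest p. The alternatives were other scalings, background corrections, filters, probe rules, blocks and left-out arrays.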

Additional observations from a re-analysis of the deposited data

Results flagged for a closer look

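In 2 of 70 groups of 4 arrays tested, 1 array stood apart from the other 3 by Dixon's criterion; chance alone does so in about 1 in 20 groups. Both were DTG 1. Celf1 read -0.20 on DTG 1 against 0.47 to 0.54 on the other DTG arrays, a gap of 0.903 of the whole range. Hnrnpd read 0.00 on DTG 1 against 0.54 to 0.64 on the others, a gap of 0.848 of the range; without DTG 1 its change was 0.20 rather than 0.05.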

How the results depend on the processing

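Of the 8 calls, Celf1, Hnrnpa2b1 and Ptbp3 held in 22 of 23 alternatives each, failing only within the 3 arrays of low Xist; Srsf10 held in 21, Mbnl1 in 20, Esrp1 in 16, Hnrnpa3 in 14 and Hnrnpr in 10. Members that rose (5) numbered 17 with spike-in scaling and 0 in the arrays of low Xist, and 4 to 5 with 1 array left out. Members that fell (3) numbered 1 with quantile scaling, no scaling or the slide column as a block, 5 with an intensity trend, 0 with spike-in scaling and within either Xist class, and 1 to 3 with 1 array left out. Member probes that rose (9) numbered 26 with spike-in scaling, 0 with low Xist and 6 to 9 with 1 array left out. Member probes that fell (4) numbered 2 with quantile scaling or the block, 1 with no scaling, 8 with the trend, 0 with spike-in scaling and within either Xist class, and 1 to 4 with 1 array left out. Other splicing genes that rose (10) numbered 16 with quantile scaling, 45 with spike-in scaling, 5 with high and 2 with low Xist, and 7 to 12 with 1 array left out. Those that fell (18) numbered 3 with no scaling, 11 with the Xist class as covariate or the block, 2 with high Xist, 0 with low Xist and with spike-in scaling, and 7 to 17 with 1 array left out. The members' median relative to all genes (0.15) was 0.27 with probes averaged, 0.23 with low Xist and 0.12 to 0.20 with 1 array left out. Spike-in scaling put 17 of the 18 members below 0 above 0. Of those, the ones called on either scale were Hnrnpa3 (0.12), Hnrnpab (0.41; second probe 0.076), Hnrnpc (0.40), Hnrnph1 (0.36), Hnrnpr (0.18) and Mbnl2 (0.44). The cause was not tested, beyond the smaller samples within each Xist class. No paired analysis was possible because the labels give no replicate numbers that the groups share; the slide column block matches arrays by position on the slide, not by sample. The low Xist fit has 1 DTG array, assumed to vary like the Control arrays. Dim signal limits the dimmest Srsf10 probe, which was above background on 3 of 4 DTG arrays.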
